A study of Mus musculus with 2 samples.

Results

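The interleukin-1 family, its antagonists and decoys, and the inflammasome genes that release its cytokines were followed in immune cells of MC38 tumors, as 10 of the 32285 genes in both count matrices. The members were the rows with the symbols Il1a, Il1b, Il18, Il1rn, Il1r2, Il18bp, Il1rap, Nlrp3, Casp1 and Casp4, and all 10 were found. MC38 is a mouse colon carcinoma line, grown here as tumors in mice of WT genotype, from which CD45+ cells, the leukocytes, were sorted for droplet single-cell RNA sequencing. The Control library came from tumors without irradiation, and the IR library from tumors collected 4 days after a single 20 Gy dose. Tumors of several mice were pooled into each library, which leaves a single library for each condition and no replicate. The records also name a narrower cell type, CD45+CD11b+Ly6Chi, yet T and NK cell genes marked a part of both libraries.

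Interleukin-1α and interleukin-1β, encoded by Il1a and Il1b, are alarm cytokines that act through the same receptor. Interleukin-1β and interleukin-18 are made as inactive precursors that caspase-1 cleaves after an inflammasome, such as the sensor NLRP3, has assembled, while caspase-11 (Casp4 in the mouse) senses bacterial lipopolysaccharide inside cells. The signal is limited at several points: Il1rn encodes a receptor antagonist, Il1r2 a decoy receptor without a signalling tail, and Il18bp a secreted protein that binds interleukin-18. Il1rap encodes the accessory chain that the interleukin-1 receptor needs to signal. Neutrophils, monocytes and macrophages are well known sources of these products in inflamed tissue.

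Promoters of 6 members are shown because they belong to the members on which the comparison turns (Il1a, Il1b, Il1rn, Il1r2) or hold a motif that was searched for (Il1rn, Casp4, Il1rap). Each window runs from 250 bases before to 50 bases after a start site, 5′ to 3′ on the strand of the gene, from RefSeq on GRCm38.p6. They are chr2:129309923-129310222 (minus strand) for Il1a, chr2:129371090-129371389 (minus) for Il1b, chr2:24345121-24345420 (plus) for Il1rn, chr1:40085843-40086142 (plus) for Il1r2, chr9:5308599-5308898 (plus) for Casp4 and chr16:26581455-26581754 (plus) for Il1rap. Capitals mark the NF-kB core (GGG, any 2 bases, then TTTCC), a site class bound by the NF-kB factors of inflammation, or the core of the interferon-stimulated response element (GAAA, any 2 bases, then GAAA), each on either strand.
Il1a: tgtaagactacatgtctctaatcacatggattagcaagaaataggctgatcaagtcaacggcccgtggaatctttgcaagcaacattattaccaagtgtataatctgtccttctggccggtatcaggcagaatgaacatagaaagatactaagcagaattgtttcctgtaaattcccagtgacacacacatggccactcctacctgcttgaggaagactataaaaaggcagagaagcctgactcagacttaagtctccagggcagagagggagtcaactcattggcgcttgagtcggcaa
Il1b: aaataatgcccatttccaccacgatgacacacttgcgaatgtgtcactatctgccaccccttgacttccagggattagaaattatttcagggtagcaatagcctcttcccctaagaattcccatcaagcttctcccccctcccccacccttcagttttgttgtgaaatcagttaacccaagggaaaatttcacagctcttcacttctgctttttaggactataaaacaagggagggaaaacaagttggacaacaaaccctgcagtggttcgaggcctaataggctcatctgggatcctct
Il1rn: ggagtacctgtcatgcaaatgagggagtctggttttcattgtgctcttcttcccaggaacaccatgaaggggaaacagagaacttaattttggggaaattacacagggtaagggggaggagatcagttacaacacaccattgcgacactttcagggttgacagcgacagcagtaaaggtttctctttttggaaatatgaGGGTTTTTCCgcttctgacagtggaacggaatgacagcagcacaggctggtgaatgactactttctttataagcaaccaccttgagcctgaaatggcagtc
Il1r2: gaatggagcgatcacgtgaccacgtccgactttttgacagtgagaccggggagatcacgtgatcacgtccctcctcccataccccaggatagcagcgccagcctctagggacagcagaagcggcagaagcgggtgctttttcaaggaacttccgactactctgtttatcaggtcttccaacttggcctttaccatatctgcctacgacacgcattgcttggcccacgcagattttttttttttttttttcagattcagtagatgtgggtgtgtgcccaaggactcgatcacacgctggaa
Casp4: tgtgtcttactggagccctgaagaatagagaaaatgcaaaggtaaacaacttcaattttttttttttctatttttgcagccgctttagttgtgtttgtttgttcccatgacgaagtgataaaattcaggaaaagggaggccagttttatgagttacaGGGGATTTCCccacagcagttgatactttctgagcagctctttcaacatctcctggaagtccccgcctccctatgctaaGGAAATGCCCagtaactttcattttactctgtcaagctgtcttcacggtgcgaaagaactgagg
Il1rap: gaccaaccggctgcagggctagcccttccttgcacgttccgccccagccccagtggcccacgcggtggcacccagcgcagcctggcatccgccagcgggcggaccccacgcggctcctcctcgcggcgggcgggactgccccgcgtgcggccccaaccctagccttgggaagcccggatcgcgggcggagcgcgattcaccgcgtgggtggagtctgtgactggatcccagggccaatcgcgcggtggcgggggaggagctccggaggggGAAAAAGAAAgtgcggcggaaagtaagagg

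The NF-kB core lay at bases 200 to 209 of the Il1rn window, on the strand of the gene. Casp4 held it at bases 158 to 167 on the strand of the gene and at bases 237 to 246 on the other strand. The interferon element core lay at bases 271 to 280 of the Il1rap window, downstream of the start site. Across 32851 promoters of the same length, 1.63% held the NF-kB core and 3.44% the interferon element core, without overlap of the matches shown here. All 10 members had a RefSeq window, 14 windows in all, of which 4 held the NF-kB core (2 overlapping windows each of Il1rn and Casp4) and 1 the interferon element core. Il1a, Il1b and Il1r2 held neither set of letters in these windows.

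On GRCm38 with the GENCODE vM21 annotation, Il1a (ENSMUSG00000027399) spans chr2:129299610-129309972 and Il1b (ENSMUSG00000027398) chr2:129364570-129371139, both on the minus strand of the same chromosome that carries Il1rn (chr2:24336853-24351494). Casp1 (chr9:5298517-5307265) and Casp4 (chr9:5308828-5336783) are neighbours, and Il18 (chr9:50554827-50581840) lies on the same chromosome. Il1r2 lies at chr1:40074079-40125231, Il18bp at chr7:102014885-102018690, Nlrp3 at chr11:59541568-59566956 and Il1rap at chr16:26581704-26730117. Annotated genes on the opposite strand overlap Il1a, Il1b, Il1r2, Il1rap, Il18 and Il18bp, and Il1r2 also overlaps a transcript of its own strand (Gm37347). Reads of such partners could not be set apart beyond what the counting did.

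Each barcode with at least 500 unique molecular identifiers (UMIs, each marking 1 captured RNA molecule) was placed in a lineage gate by its marker genes, none of which is a member. After filters on genes and mitochondrial RNA, 5043 Control and 3578 IR barcodes remained, with 41791369 and 37964761 UMIs, and 7 barcodes of at least 500 UMIs were shared between the libraries. The neutrophil gate held 32 Control cells (0.635% of the library) and 204 IR cells (5.70%), with 51477 and 813272 UMIs. The monocyte gate held 746 and 1075 cells, and the macrophage gate 2147 and 460. S100a9 and C1qa were among the genes that placed the barcodes, so their levels describe the gates and are no check of them. S100a9, a neutrophil gene, was at 43592 CPM (UMIs of a gene per 1000000 UMIs of the gate) in the Control neutrophil gate. It was at 27255 CPM in the IR one, against 7.86 and 76.2 in the monocyte gate. C1qa, a macrophage gene, was at 2789 and 2309 CPM in the macrophage gate against 174 and 173 in the monocyte gate. Ly6c2, a gene of the monocyte list, was at 70.3 CPM in Control and 356 in IR in the macrophage gate. In the monocyte gate it was at 871 and 1674 CPM, and its part in the results below was not tested. A further gate of collagen-expressing cells was low in Ptprc, the gene of CD45 (12.6 and 9.33 CPM, against 579 and 559 in the monocyte gate). Barcodes that scored for more than 1 lineage were left out as mixed.

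Values below are CPM of the UMIs summed over a gate, with exact Poisson 95% intervals in parentheses. Ratios are IR over Control with an exact conditional 95% interval. All of these cover counting error only, so they compare the 2 libraries and say nothing of the spread between mice. A member is counted as higher or lower where the ratio was at least 2-fold in either direction with at least 20 UMIs over both libraries. No test was run, because there was 1 library per group.

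In the monocyte gate 3 of 10 members (Il1a, Il1rn and Il1r2) were at least 2-fold higher in IR, against 3.13% of 10666 genes there. None was lower by that margin, against 2.86% of genes. The median log2 ratio of the members was 0.76, against -0.05 over all genes. In the macrophage gate 4 members (Il1a, Il1r2, Il1rn and Il18bp) were higher by at least 2-fold, against 3.37% of 11648 genes. The median of the members was 0.88 against -0.08. None was lower by that margin, against 5.06%. In both gates Il1a, Il1r2 and Il1rn had the largest ratios, and Nlrp3 and Il1rap the smallest. In the neutrophil gate 2 members (Il1a and Casp1) were higher and 1 (Il18bp) lower by at least 2-fold, where 15.7% and 9.82% of 3942 genes passed the same limits, with 51477 UMIs on the Control side.

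**Figure D1:**
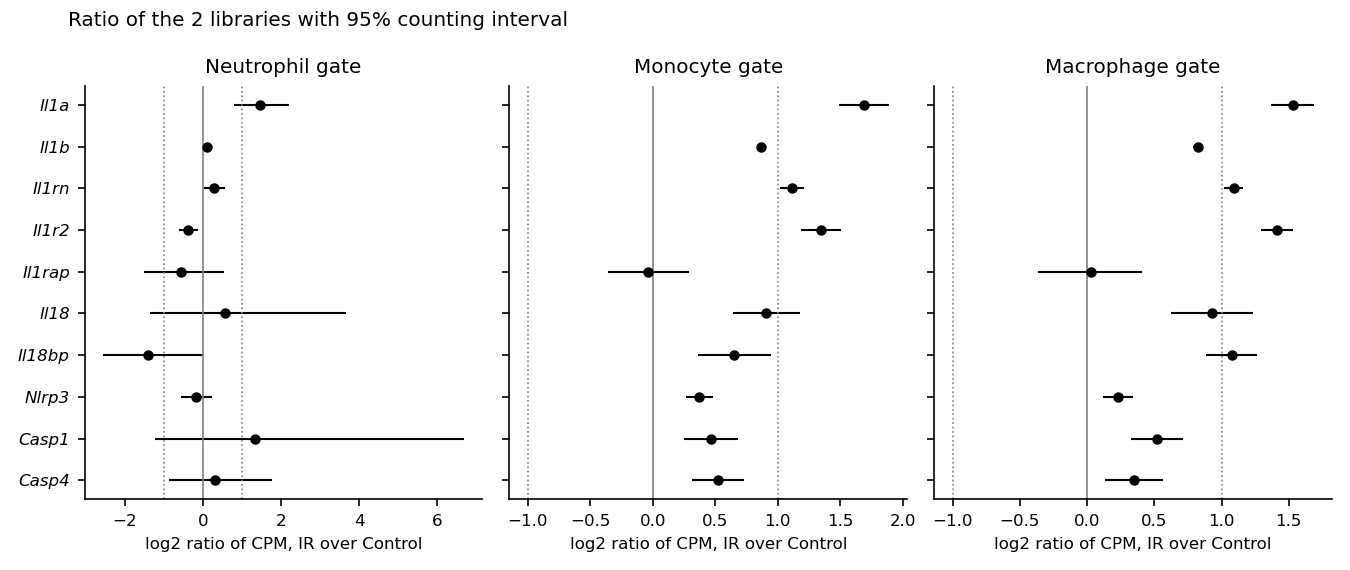
Log2 ratio of CPM, IR over Control, of the 10 members in the neutrophil, monocyte and macrophage gates, where points are the ratio, bars the exact 95% counting interval, the solid line no difference and the dotted lines 2-fold. The axes of the panels differ in range. Il1a, Il1rn and Il1r2 lie past 2-fold in the monocyte and macrophage gates, Il1rap lies at 0 there, and the bars of the neutrophil gate are wide.

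Among the ligands, Il1a had the largest ratio in the monocyte gate. It was at 47.4 CPM in Control (41.6 to 53.7) and 153 in IR (145 to 160), a ratio of 3.22 (2.81 to 3.70). In the macrophage gate it was at 39.5 CPM (36.7 to 42.3) and 114 (105 to 124), a ratio of 2.89 (2.58 to 3.22). The neutrophil gate carried more of it in both libraries, at 369 CPM in Control (222 to 576, from 19 UMIs) and 1012 in IR (944 to 1084). The libraries did not overlap in any of the 3 gates. Mature dendritic cells, the CCR7-expressing migratory state, held little: 5.06 CPM in Control (2.03 to 10.4) and 23.3 in IR (16.9 to 31.3).

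Il1b was the most abundant member by UMIs. In the neutrophil gate it stood at 15288 CPM in Control (14239 to 16395) and 16554 in IR (16276 to 16836), so that more than 1% of all neutrophil RNA molecules captured were Il1b in either library, and the ratio was 1.08 (1.01 to 1.16). The monocyte gate was at 1904 CPM (1867 to 1943) and 3472 (3436 to 3508), a ratio of 1.82 (1.78 to 1.86). Macrophages were at 931 CPM (918 to 945) and 1650 (1615 to 1686), a ratio of 1.77 (1.73 to 1.82). Within each library, then, the order ran from neutrophils over monocytes to macrophages without overlap of the intervals. Type 2 conventional dendritic cells were at 1238 CPM (1105 to 1383) and 1343 (1234 to 1460), with overlapping intervals. Mature dendritic cells were at 1159 (1103 to 1217) and 1691 (1632 to 1750), and the mast cell or basophil gate at 657 (514 to 827) and 1433 (1292 to 1585). In the mast cell or basophil gate the neutrophil gene S100a9 was at 0 in Control and 275 CPM in IR, and its part in the result was not tested. Il1b was the 1 member higher there by at least 2-fold, against 8.53% of genes, and none was lower, against 5.1%. In the type 2 dendritic cell gate none was called in either direction, against 4.22% and 4.65%. In the collagen-expressing gate the difference ran the other way, at 62.9 CPM (50.9 to 76.9) in Control and 18.2 (12.8 to 25) in IR. Il1b and Il1r2 were lower there by at least 2-fold, against 3.01% of 9653 genes, and Il18bp and Casp1 higher, against 2.9%. Casp1 rested on 6 Control and 17 IR UMIs, and the interval of its ratio, 0.790 to 6.51, included no difference. The myeloid gene Lyz2 was at 85.4 and 24.5 CPM in that gate, and its part in the result was not tested.

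Il18 was low throughout and highest in myeloid gates. Monocytes had 29.3 CPM in Control (24.8 to 34.4) and 54.9 in IR (50.4 to 59.6), a ratio of 1.87 (1.56 to 2.26). Macrophages had 14.2 (12.6 to 15.9) and 27.1 (22.7 to 32.0), a ratio of 1.91 (1.54 to 2.35). The neutrophil gate gave 2 UMIs in Control and 47 in IR, too few to tell a difference (ratio 1.49, 0.390 to 12.6). Its level in the mast cell or basophil gate was 0 UMIs in both libraries, with upper limits of 33.7 CPM in Control and 13.9 in IR.

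**Figure D2:**
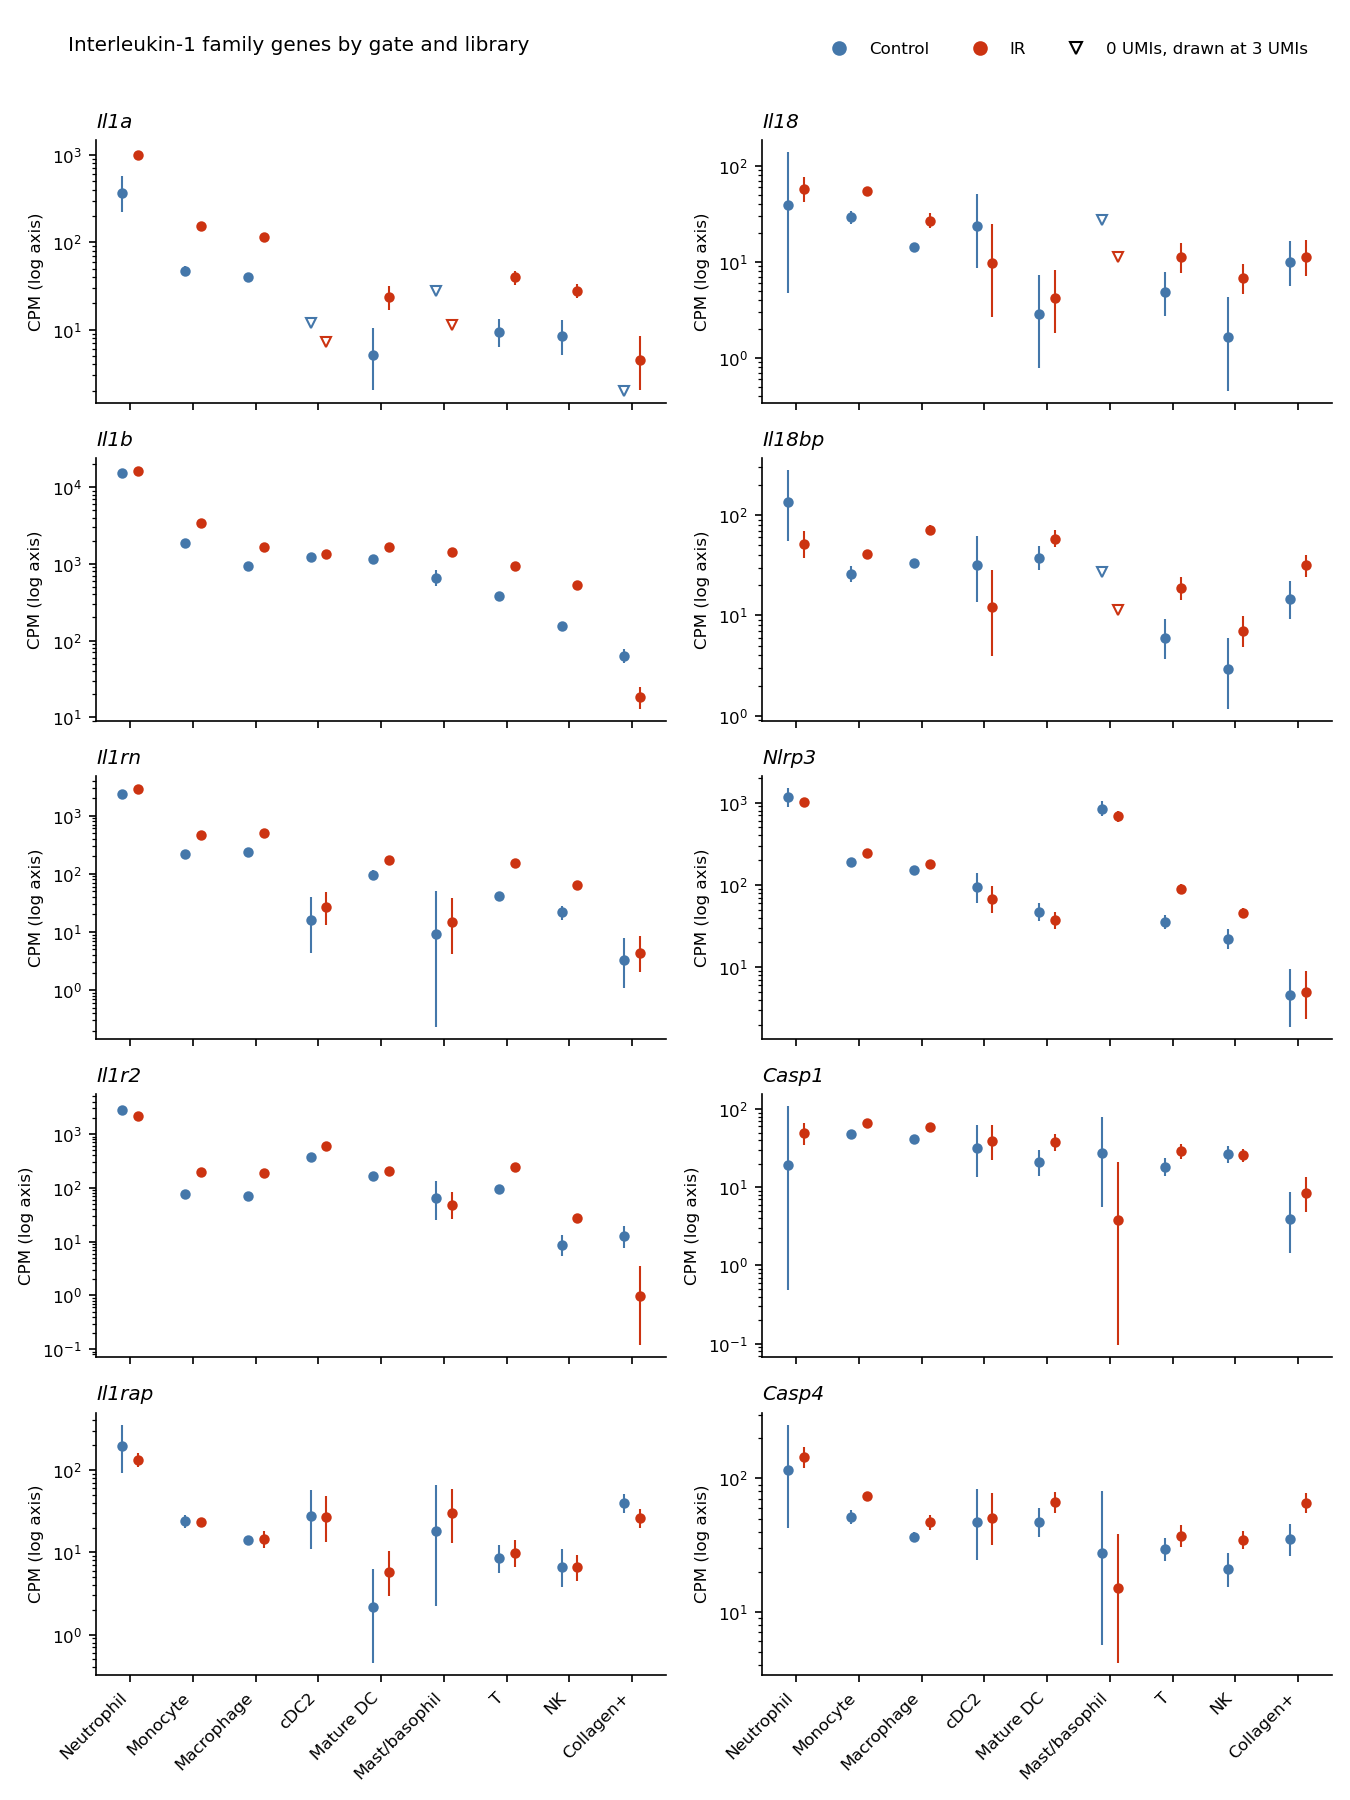
CPM of each member (log axis) in 9 gates, in blue for the Control library and red for the IR library. Bars are exact 95% Poisson intervals, and open triangles mark gates with 0 UMIs, drawn at the level of 3 UMIs. Neutrophils lead for Il1a, Il1b, Il1rn and Il1r2, whose monocyte and macrophage points are higher in IR.

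The receptor antagonist Il1rn was higher in IR in monocytes and macrophages by about the same factor. Its monocyte level was 218 CPM in Control (205 to 231) and 470 in IR (457 to 484), a ratio of 2.16 (2.02 to 2.31). Its macrophage level was 235 (229 to 242) and 502 (482 to 522), a ratio of 2.13 (2.03 to 2.24). Neutrophils carried 2312 CPM (1915 to 2766) and 2838 (2723 to 2956), a ratio of 1.23 (1.02 to 1.49). Their log2 ratio of 0.30 was 2.20 when S100a8 and S100a9 were left out of the gate, which left 14 Control and 99 IR cells. Mature dendritic cells carried 96.8 (81.1 to 115) and 171 (153 to 191).

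The decoy receptor Il1r2 was higher in IR in monocytes and macrophages but not in neutrophils. Neutrophils had 2778 CPM in Control (2341 to 3272) and 2149 in IR (2050 to 2253), a ratio of 0.774 (0.652 to 0.924). Monocytes had 77.4 (70.0 to 85.5) and 197 (188 to 206), a ratio of 2.54 (2.28 to 2.84), and macrophages 71.6 (67.9 to 75.4) and 190 (178 to 203), a ratio of 2.66 (2.45 to 2.89). The neutrophil difference was small and moved with the processing: its log2 ratio was -0.37, but -0.03 under TMM scaling, 0.08 when S100a8 and S100a9 were left out of the gate and 0.30 when cells were weighted equally. Without S100a8 and S100a9 the gate held 14 Control and 99 IR cells. Type 2 conventional dendritic cells were the next highest, at 367 CPM (296 to 449) and 591 (519 to 669). Mature dendritic cells stood at 168 (147 to 191) and 208 (188 to 230), a ratio of 1.24 (1.05 to 1.47), though the CPM intervals met.

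Il18bp, the interleukin-18 antagonist, was higher in IR macrophages, at 33.6 CPM in Control (31.1 to 36.2) and 70.9 in IR (63.6 to 78.7), a ratio of 2.11 (1.85 to 2.41). Monocytes gave 25.9 (21.7 to 30.8) and 40.7 (36.9 to 44.8). Mature dendritic cells gave 37.6 (28.1 to 49.3) and 58.2 (47.9 to 70.2), a ratio of 1.55 (1.10 to 2.20), though the CPM intervals overlapped. In the neutrophil gate it came from 7 Control UMIs and 42 IR UMIs, 136 CPM (54.7 to 280) and 51.6 (37.2 to 69.8), again with overlap.

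The accessory chain Il1rap was at nearly equal levels in both libraries in monocytes and macrophages. It was at 23.8 CPM (19.7 to 28.4) and 23.2 (20.4 to 26.3) in monocytes and at 14.0 (12.4 to 15.8) and 14.3 (11.2 to 18.1) in macrophages. The ratios were 0.976 (0.781 to 1.22) and 1.02 (0.776 to 1.33), so that a 2-fold difference lay outside both intervals. Over all barcodes it was at 15.0 and 20.4 CPM, a ratio of 1.36 (1.23 to 1.52), and in the collagen-expressing gate at 39.7 and 26.0, a ratio of 0.655 (0.444 to 0.964). Neutrophils had the highest level, 194 CPM (93.2 to 357) and 132 (108 to 159). Il1r1, the signalling receptor itself, was near the limit of detection in leukocytes: 20 Control UMIs and 1 IR UMI in macrophages, 10 and 9 in monocytes and 0 and 1 in neutrophils. Its highest level was in the collagen-expressing gate, at 17.2 and 13.3 CPM.

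Inflammasome members had smaller ratios than Il1a and Il1b in monocytes and macrophages. Nlrp3 was at 189 CPM (177 to 201) and 244 (235 to 254) in monocytes, a ratio of 1.29 (1.20 to 1.39), and at 152 (146 to 157) and 178 (166 to 190) in macrophages, a ratio of 1.17 (1.09 to 1.27). The neutrophil gate held 1166 CPM (889 to 1500) and 1030 (962 to 1103), with overlap. The mast cell or basophil gate was close behind at 849 (685 to 1040) and 683 (587 to 790), above the mature and type 2 dendritic, T and NK cell gates, which lay between 22.1 and 94.7 CPM.

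Casp1 was at 47.4 CPM (41.6 to 53.7) and 65.3 (60.5 to 70.5) in monocytes and at 41.6 (38.8 to 44.5) and 59.8 (53.1 to 67.0) in macrophages, ratios of 1.38 (1.19 to 1.60) and 1.44 (1.25 to 1.64). In neutrophils it rested on 1 Control UMI and 40 IR UMIs, and its ratio of 2.53 had an interval of 0.429 to 102. Casp4 was at 51.3 (45.3 to 57.9) and 73.5 (68.4 to 78.9) in monocytes, a ratio of 1.43 (1.24 to 1.66), and at 36.7 (34.1 to 39.5) and 46.8 (41.0 to 53.3) in macrophages, a ratio of 1.28 (1.10 to 1.48). In the collagen-expressing gate, which is low in the leukocyte gene Ptprc, Casp4 was at 35.1 CPM (26.3 to 45.9) and 65.8 (55.1 to 77.9), and Il18 at 9.93 and 11.3. Pycard, the adaptor that joins NLRP3 to caspase-1, was at 348 and 358 CPM in monocytes and 291 and 355 in macrophages, ratios of 1.03 (0.971 to 1.09) and 1.22 (1.16 to 1.29). Gsdmd, the pore-forming protein cut by these caspases, was at 79.2 and 85.6 CPM in monocytes and 56.5 and 83.4 in macrophages, ratios of 1.08 (0.960 to 1.22) and 1.48 (1.31 to 1.65).

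Ratios of members within a gate do not depend on the scaling of a library. A UMI stands for the 3′ end of an RNA whatever its length, but capture differs between genes, so such ratios are compared between libraries only. For every 100 Il1b UMIs, monocytes held 11.4 Il1rn UMIs in Control (10.7 to 12.2) and 13.5 in IR (13.1 to 14.0), and macrophages 25.3 (24.5 to 26.1) and 30.4 (29.1 to 31.8). The antagonist was thus slightly more abundant relative to Il1b in IR in these gates, but less abundant relative to Il1a. For every 100 Il1a UMIs there were 459 Il1rn UMIs in Control monocytes (399 to 530) and 308 in IR ones (291 to 327), and 596 (553 to 644) and 441 (402 to 484) in macrophages. In neutrophils there were 626 (384 to 1077) and 280 (259 to 304). Il1r2 per 100 Il1b UMIs was 4.07 (3.67 to 4.5) and 5.67 (5.42 to 5.93) in monocytes and 7.69 (7.28 to 8.12) and 11.5 (10.8 to 12.3) in macrophages. In neutrophils it was 18.2 (15.1 to 21.7) and 13.0 (12.3 to 13.6). Il1a was higher relative to Il1b in IR in all 3 gates, from 2.41 (1.45 to 3.8) to 6.11 (5.69 to 6.56) in neutrophils, from 2.49 (2.18 to 2.83) to 4.39 (4.17 to 4.62) in monocytes and from 4.24 (3.94 to 4.55) to 6.90 (6.32 to 7.51) in macrophages. Nlrp3 was lower relative to Il1b, from 16.3 (15.7 to 16.9) to 10.8 (10.1 to 11.6) in macrophages and from 9.91 (9.26 to 10.6) to 7.03 (6.75 to 7.32) in monocytes. Il18bp per 100 Il18 UMIs overlapped between the libraries, at 88.6 (69.6 to 113) and 74.2 (65.2 to 84.3) in monocytes and at 237 (206 to 273) and 262 (214 to 322) in macrophages. Casp1 per 100 Casp4 UMIs overlapped as well, at 92.3 and 88.9 in monocytes and 113 and 128 in macrophages.

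To compare shares of cells at equal depth, every cell was drawn down to the same 1000 UMIs. A share of cells with a UMI also rises with the mean level, so it cannot tell more cells from more RNA per cell. Shallower cells, 5 and 6 neutrophils, 24 and 14 monocytes and 103 and 38 macrophages of Control and IR, were dropped. At that depth Il1b was found in all 27 Control neutrophils kept and in 99.0% of IR ones. Among monocytes it was found in 55.3% in Control (51.6% to 58.9%, exact binomial) and 68.2% in IR (65.3% to 71.0%), and among macrophages in 29.5% (27.5% to 31.5%) and 42.4% (37.7% to 47.3%). NK cells, which should lack the gene, gave 5.28% (3.11% to 8.32%) and 11.7% (8.85% to 15.0%) at the same depth. Il1a was found in 2.77% of Control monocytes (1.70% to 4.25%) and 10.7% of IR monocytes (8.94% to 12.8%), against 0.311% and 2.47% of NK cells. In neutrophils it was found in 14.8% (4.19% to 33.7%) and 37.9% (31.1% to 45%). Il1rn was found in 17.0% (14.4% to 20.0%) and 30.5% (27.8% to 33.4%) of monocytes, and Il1r2 in 6.23% (4.58% to 8.25%) and 12.8% (10.9% to 15.0%). Nlrp3, by contrast, was found in 17.5% (14.8% to 20.4%) and 18.1% (15.8% to 20.5%) of monocytes, which overlap. Without thinning the shares were larger, for example 74.7% and 85.2% of monocytes for Il1b, at median depths of 5813.5 and 8121 UMIs, and 13.5% and 25.5% of NK cells, at 5789.5 and 6825.

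**Figure D3:**
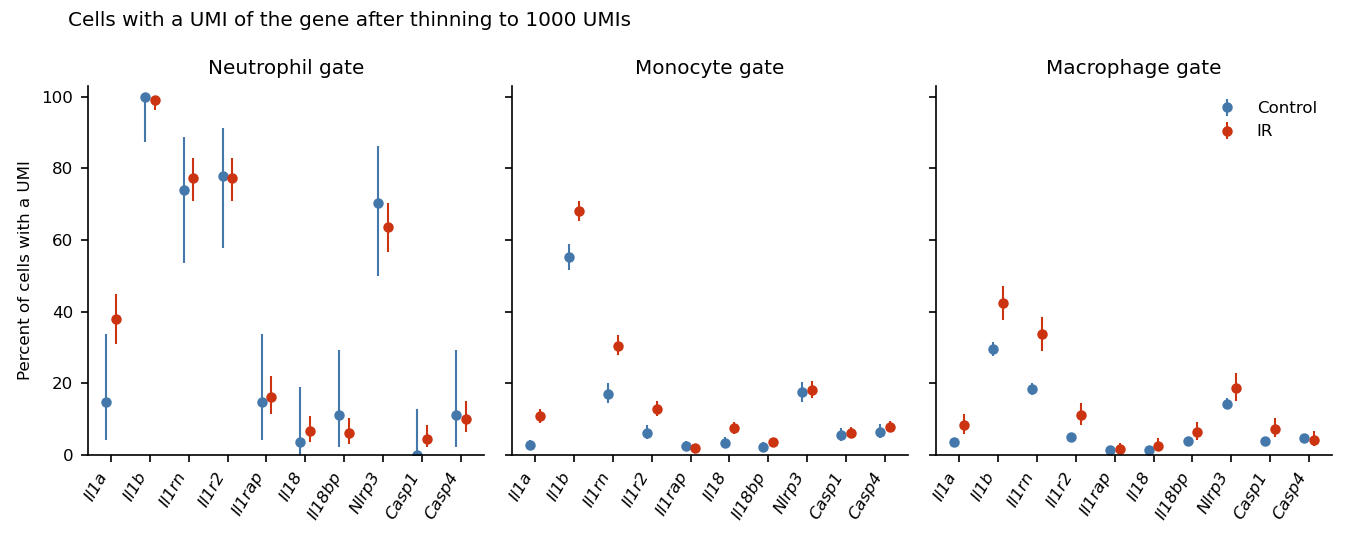
Percent of cells with at least 1 UMI of each member after every cell was thinned to 1000 UMIs, in the neutrophil, monocyte and macrophage gates, with exact 95% binomial intervals (blue Control, red IR). Il1a, Il1b, Il1rn and Il1r2 were found in more IR than Control monocytes and macrophages, and Nlrp3 and Il1rap in similar shares of monocytes.

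The gates that held the RNA differed between the libraries, as did the size of the gates: macrophages made up 47.4% of all UMIs in Control and 13.1% in IR, and monocytes 12.2% and 27.1%. Macrophages held 45.6% of all Il1b UMIs in Control (45.1% to 46.1%) and 9.33% in IR (9.14% to 9.53%). Monocytes held 23.9% (23.5% to 24.4%) and 40.8% (40.5% to 41.1%), and neutrophils 1.95% (1.81% to 2.08%) and 15.4% (15.1% to 15.6%). For Il1rn the macrophage share was 63.6% and 17.9%, the monocyte share 15.1% and 34.9% and the neutrophil share 1.62% and 16.6%. Neutrophils made up 20.6% of Il1r2 UMIs and 18.3% of Il1a UMIs in IR, after 3.96% and 1.46% in Control, while they held 2.14% of all UMIs in IR and 0.123% in Control. For Il18, Casp1 and Il18bp the neutrophil share was smaller, at 4.28%, 2.37% and 2.99% in IR. It was 0.370%, 0.0684% and 0.651% in Control.

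**Figure D4:**
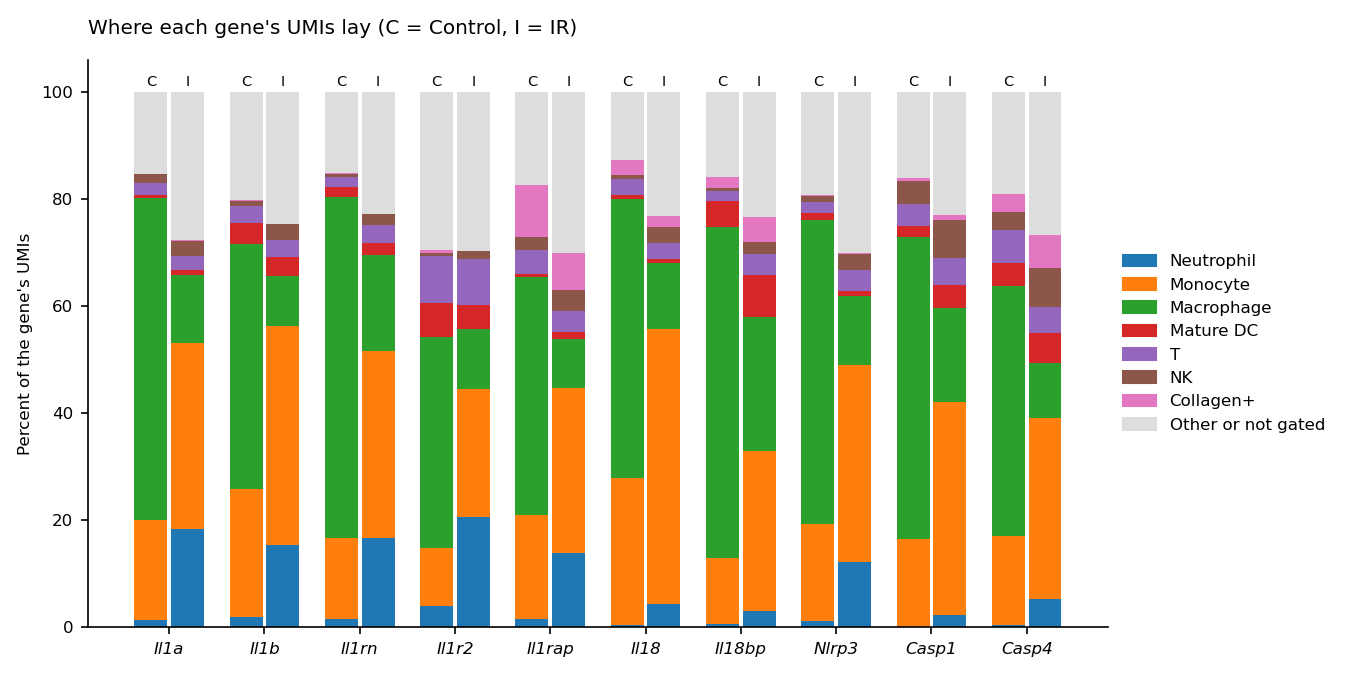
Percent of each member's UMIs that lay in each gate (stacked colours, grey for the other gates and barcodes not placed), for Control (C) and IR (I). The macrophage block is smaller and the monocyte block larger in IR for every member, and the neutrophil block is visible in IR for Il1a, Il1b, Il1rn, Il1r2, Il1rap and Nlrp3.

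Over all barcodes that passed the filters, 5 members (Il1a, Il1b, Il1rn, Il1r2 and Il18) were higher in IR by at least 2-fold, where 5.65% of 14188 genes were, and none was lower, against 2.64%. Il1b was at 968 CPM in Control and 2308 in IR, a ratio of 2.38, and Il1a at 31.1 and 119, a ratio of 3.81. If each gate had kept its Control level and only the share of UMIs per gate had been that of IR, the ratio would have been 1.40 for Il1b, 1.67 for Il1r2, 1.10 for Il1a and 1.07 for Il1rn. If only the levels within gates had been those of IR, it would have been 1.85 for Il1b, 2.21 for Il1r2, 3.30 for Il1a and 2.16 for Il1rn. Il1rap was the reverse case, with 1.33 from the shares and 1.09 from the levels. The neutrophil part of this rests on 32 Control cells. Ly6c2 also differed between the libraries within the monocyte and macrophage gates, and its part in the level ratios was not tested.

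T and NK cell gates also showed the members, and myeloid RNA was present in those gates in both libraries. In each gate 7 members were higher in IR by at least 2-fold, against 3.3% of genes in the T cell gate and 3.95% in the NK cell gate, and none was lower, against 2.12% and 1.74%. Il1b was at 380 CPM (359 to 402) and 954 (919 to 990) in the T cell gate and at 155 (139 to 171) and 532 (511 to 553) in the NK cell gate. Lyz2, a lysozyme gene of myeloid cells, was at 729 and 835 CPM in the T cell gate and 375 and 515 in the NK cell gate, and S100a9 at 0.902 and 102 in the T cell gate. C1qa was lower in IR, at 206 and 53.8 CPM in the T cell gate and 87.5 and 57.6 in the NK cell gate. Barcodes with a Lyz2 UMI made up 57.1% and 45.8% of the T cell gate and 52.9% and 38.4% of the NK cell gate. They were also deeper. Median UMIs with and without Lyz2 were 5244 and 3668 in Control T cells and 9731 and 4421 in IR ones. In NK cells they were 7043.5 and 5092 in Control and 9011 and 5566 in IR. The part of depth in this split was not tested. When barcodes with any Lyz2 UMI were set aside, a choice made after the data were seen, 231 of 538 Control and 176 of 325 IR T cells remained. Il1b was then at 44.7 CPM (33.0 to 59.3) and 37.6 (26.9 to 51.2), and Il1rn at 14.9 (8.52 to 24.2) and 8.46 (3.87 to 16.1). In NK cells without Lyz2 UMIs (160 and 282), Il1b was at 101 CPM (82.6 to 123) and 51.4 (42.9 to 61.2), lower in IR. Most of the Il1b in these gates thus lay in barcodes that also held Lyz2.

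Il1r2 in T cells was different. It was at 95.3 CPM (85.1 to 106) and 246 (228 to 264) over the whole gate, and at 104 (85.9 to 126) and 209 (182 to 238) in T cells without a Lyz2 UMI. The libraries did not overlap with or without the barcodes that held Lyz2. T cells with a UMI of Foxp3, the regulatory T cell factor, had 169 CPM of Il1r2 in Control (130 to 215, 59 cells) and 351 in IR (286 to 426, 26 cells), with median depths of 4326 and 8939 UMIs. The other T cells had 85.5 (75.3 to 96.8, 479 cells) and 234 (216 to 253, 299 cells), with median depths of 4463 and 5755 UMIs. Cells with an Il1r2 UMI numbered 28 in Control and 17 in IR with Foxp3, and 96 and 80 among the others. The part of depth was not tested. Il1r2 was thus higher in Foxp3-positive than in other T cells in each library and higher in IR in both kinds. This split kept the barcodes with Lyz2. Lyz2 was at 879 CPM in Control and 733 in IR in the Foxp3-positive cells, and at 709 and 846 in the others. Il1b was at 519 and 1036 CPM in the Foxp3-positive cells and at 362 and 945 in the others. The part of such RNA in the Foxp3 comparison was not tested. Il1rl1, the interleukin-33 receptor that also marks tissue regulatory T cells, was at 66.5 CPM (43.4 to 97.4) and 82.6 (52.9 to 123) in the Foxp3-positive cells and at 10.2 and 1.89 in the others.

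**Figure D5:**
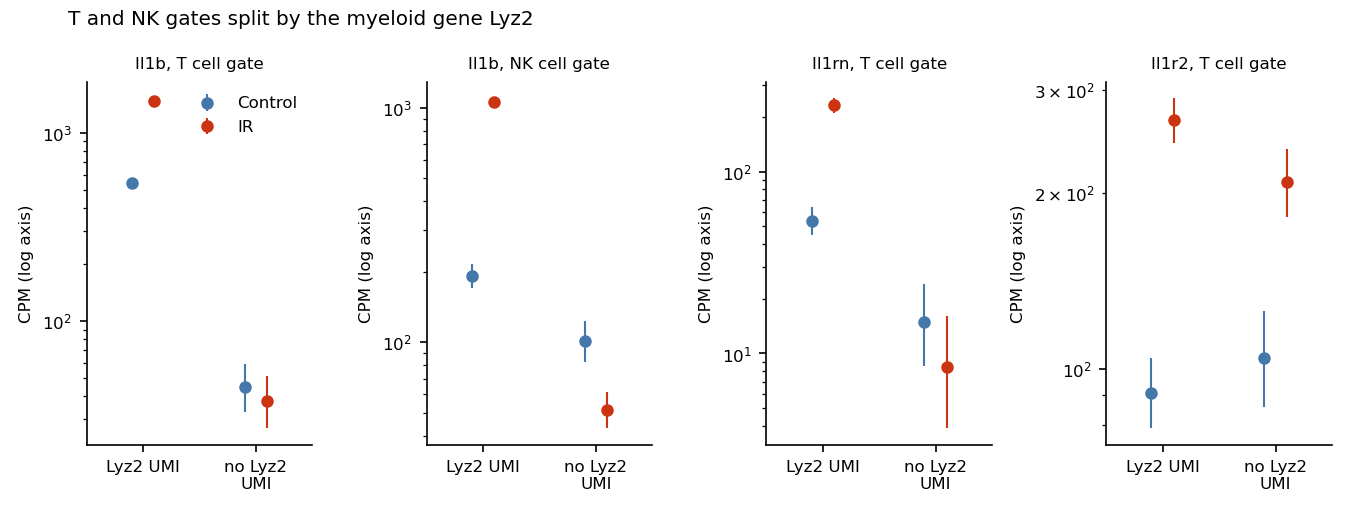
CPM (log axes that differ between panels) of Il1b, Il1rn and Il1r2 in barcodes of the T or NK cell gate with and without a UMI of the myeloid gene Lyz2, with exact 95% Poisson intervals (blue Control, red IR). Without Lyz2, Il1b and Il1rn lie at 101 CPM or less and are not higher in IR, while Il1r2 in T cells lies at 104 and 209 CPM.

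Mature dendritic cells without a Lyz2 UMI (59 Control and 102 IR cells) still carried Il1b at 956 CPM (863 to 1057) and 889 (828 to 954), with overlap, where the whole gate had differed. Their Il1r2 was at 197 CPM (156 to 245) and 142 (118 to 170), also overlapping. Overlap does not show equal levels, and no ratio intervals were made for these cells. In the whole gate 1 member, Il1a, was higher in IR by at least 2-fold, against 3.64% of genes, and none lower, against 4.15%. Without Lyz2 only 0 and 1 UMI of Il1a were left. Casp4, at 49.8 (30.4 to 76.9) and 82.7 (64.7 to 104), overlapped as well. Type 2 dendritic cells without Lyz2 came to 8 and 10 cells, with Il1b at 1753 CPM (1401 to 2168) and 731 (578 to 910).

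The part that free RNA could have in the myeloid gates was estimated from empty droplets. These held Il1b at 939 CPM in Control (893 to 987) and 1780 in IR (1703 to 1861). Judged from T and NK cell genes, which monocytes lack, free RNA could make up 2.33% of the Il1b of Control monocytes and 2.11% of that of IR monocytes, and 9.46% and 5.81% in macrophages. For Il1r2 the estimates were 5.92% and 3.83% in monocytes and 12.7% and 5.18% in macrophages. RNA of whole neutrophils in the IR monocyte gate, judged from S100a9, could make up 0.280% of UMIs and 6.01 of the 197 CPM of Il1r2. For Il1a it was 2.83 of 153 CPM. Judged from the C1q genes, free RNA could make up 8.48% of the UMIs of the Control neutrophil gate and 30.3% of those of the IR one. In the IR neutrophil gate that came to 39.6% of Casp1, 18.5% of Il18, 16.0% of Il18bp and 11.3% of Casp4, and to between 2.58% and 3.58% of the other 6 members.

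The wider pathway, 44 receptors, adaptors, sensors and effectors of interleukin-1, interleukin-18 and the inflammasome, had medians close to 0 in monocytes and macrophages. In monocytes 35 of the 44 had at least 20 UMIs, with a median log2 ratio of 0.08. Of these, 1 was higher and 1 lower by at least 2-fold, against 3.13% and 2.86% of all genes. Nlrp1b, an inflammasome sensor, was the higher, from 2 and 18 UMIs, and Il1rl1 the lower, at 7.47 and 2.52 CPM (ratio 0.338, 0.197 to 0.571). In macrophages 37 genes were measured with a median of 0.06. Il36g, another cytokine of the family, was higher there (5 and 16 UMIs, 0.252 and 3.23 CPM) and Il1r1 lower, against 3.37% and 5.06% of all genes. In neutrophils, 19 genes were measured, with a median of 0.29. Casp8, Irak1 and Pycard were higher from 2, 1 and 3 Control UMIs, and Irak3 and Il18rap lower from 4 and 9. These calls were near the shares over all genes in that gate, 15.7% higher and 9.82% lower. Outside the leukocytes, Il1rl1 was at 64.9 and 192 CPM in the collagen-expressing gate, a ratio of 2.96 (2.37 to 3.73).

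The receptor chains of interleukin-18 lay with lymphocytes and mast cells or basophils. Il18r1 was at 107 CPM in Control and 82.1 in IR in T cells (ratio 0.769, 0.651 to 0.909) and at 48.3 and 48.5 in NK cells (ratio 1.0, 0.800 to 1.27). Il18rap was at 85.1 and 76.0 CPM in T cells and 66.6 and 64.8 in NK cells, ratios of 0.893 (0.746 to 1.07) and 0.973 (0.801 to 1.19). The mast cell or basophil gate had the highest level of both, 164 and 151 CPM of Il18r1 and 246 and 234 of Il18rap.

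The genes whose levels across gates were most like those of a member were found by Pearson correlation of log2(CPM + 10) over 20 points, 10 gates in each of the 2 libraries, among 10092 genes. These points share libraries and depth, and r is given as a description. Il1a and Il1rn had the same leading gene, Cxcl3, a chemokine that draws neutrophils (r = 0.97 for each), followed by Gm15832 and Trem1 for Il1a and Trem1 and Slc7a11 for Il1rn. Il1b was led by Ccrl2 (0.94), Rhog and Mcl1, and Il1r2 by Rhog (0.89), Snx20 and Syk. Nlrp3 was led by Lilr4b (0.97), Lilrb4a and Ccr1. Lower down came Casp1 with Ms4a6d (0.90), Cyba and Pycard, Il18 with Ifi204 (0.91), Tpd52 and AI839979, and Il1rap with Acta2 (0.90), Sfxn5 and Inpp5a. Il18bp was led by Nampt (0.88), Chmp3 and N4bp1, and Casp4 by Tgif1 (0.88), Oas2 and Tgm2. Lilr4b and Lilrb4a are close paralogs, so their reads may be split uncertainly. Among the members themselves, r was highest between Il1a and Il1rn (0.96) and lowest between Il1rap and Casp1 (-0.07).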

How the data were processed

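The authors sequenced 10x 3′ (v3.1) libraries of sorted CD45+ cells and deposited the raw UMI counts of every gene in every barcode, empty droplets included. The submitters' notes name Cell Ranger 6.0.1 and mm10, and the deposited matrix headers Cell Ranger 4. The deposited cells were not annotated.

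Barcodes with at least 500 UMIs, 200 genes and at most 25% mitochondrial UMIs were kept, as in the study for genes and mitochondria. Markers per lineage placed barcodes in gates, whose score limits were set after the data were seen, and barcodes with a second lineage within 2-fold were dropped in place of a doublet caller. Monocytes had more UMIs of 6 monocyte genes than of 3 C1q genes. UMIs were summed per gate and library (total UMIs 48593879 in Control, 42406461 in IR). The members and lists were chosen with earlier results of these data known. All members, and the pathway genes past 2-fold with at least 20 UMIs in the neutrophil, monocyte or macrophage gate plus 6 receptor and inflammasome genes, are named. Alternatives covered depth, filters, gates, free RNA, TMM scaling and equal weight per cell. B cell and type 1 dendritic cell gates (at most 27 cells) were not compared. Fold rule and intervals were tested on simulated data. Of simulated unchanged genes, 14.9% passed 2-fold in either direction in the neutrophil gate, 1.23% in the monocyte gate and 1.88% in the macrophage gate. Python 3.11.15, numpy 2.4.6, scipy 1.17.1, pandas 2.3.3 and edgeR 4.0.16 (R 4.3.3) were used.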

Additional observations from a re-analysis of the deposited data

Results flagged for a closer look

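Members that were higher in IR in several gates were lower in others, a difference between gates that was not tested. Il1r2 had a log2 ratio of -0.37 in neutrophils and -3.68 in the collagen-expressing gate (19 and 2 UMIs), with intervals below 0, but lay above 0 in 6 other gates. Il1b was at -1.79 in the collagen-expressing gate and above 0 in 7 others. In that gate Lyz2 was at 85.4 and 24.5 CPM and C1qa at 42.4 and 0.982, lower in IR as well, and their part in the result was not tested.

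Some members were at least 2-fold above Control outside the gates. Empty droplets held Il1a at 120 CPM in IR (100 to 142) and 45 in Control (35.3 to 56.5), and Il18 at 35.3 (25.1 to 48.3) and 15.8 (10.3 to 23.2). Mixed barcodes held, in IR, 145 CPM of Il1a, 2547 of Il1b, 421 of Il1rn, 228 of Il1r2 and 33.7 of Il18, ratios of 5.67, 2.98, 2.55, 2.90 and 4.55. S100a9 was at 107 CPM in Control and 756 in IR among these barcodes. Barcodes in no gate held 111 CPM of Il1a and 14.9 of Il18 in IR, ratios of 4.37 and 2.16. Others differed less: Il1b was at 939 and 1780 CPM in empty droplets and Nlrp3 at 114 and 120, and in barcodes of no gate the ratio was 1.23 for Il1b, 1.55 for Il1rn and 1.20 for Il1r2.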

How the results depend on the processing

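No paired analysis was possible because Control and IR each had a single library. In monocytes, 3 members were at least 2-fold higher under all alternatives with that limit, and 6 at 1.5-fold. In macrophages the number was 3 to 5, and 6 at 1.5-fold. The share of all genes past each limit was not computed under the alternatives. The counts of members given here therefore have no background to be read against. Over the alternatives set beforehand, the log2 ratio in monocytes ran from 1.5 to 1.80 for Il1a, 1.04 to 1.18 for Il1rn and 1.15 to 1.52 for Il1r2, and in macrophages from 1.32 to 1.76, 1.01 to 1.13 and 1.30 to 1.55. Macrophage Il18bp ran from 0.89 to 1.18, across the limit. The neutrophil counts changed most: 1 member was higher with at least 1000 or 2000 UMIs per barcode, with cells weighted equally or with at least 100 UMIs per gene, and 4 without S100a8 and S100a9. None was lower (0) with mixed barcodes kept, without S100a8 and S100a9, at a score limit 2 times as high, with cells weighted equally or at 100 UMIs per gene. TMM scaling moved the median log2 ratio of neutrophil genes from 0.11 to 0.44. Il1b in neutrophils went from 0.11 to 1.23 without S100a8 and S100a9 and to -0.21 at 2000 UMIs, and Nlrp3 from -0.18 to 0.47 without S100a8 and S100a9. Under that gate Il1rn went from 0.30 to 2.20 and Casp4 from 0.30 to 2.17, while Casp4 was at -0.38 at 2000 UMIs. These settings left few Control neutrophils, 14 without S100a8 and S100a9 and 4 at 2000 UMIs, against 99 and 145 in IR. The cause was not tested.

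Barcodes that held Lyz2 were also left out, an alternative chosen after the data were seen. The log2 ratio then turned to -0.25 for Il1b and -0.82 for Il1rn in T cells, whose CPM intervals overlapped. In NK cells it turned to -1.99 for Il1a, -0.98 for Il1b, -0.99 for Il1rn and -1.31 for both Il18bp and Nlrp3. Few UMIs were left in Control and IR NK cells: 16 and 10 of Il1a, 16 and 20 of Il1rn, 4 and 4 of Il18bp, and 10 and 10 of Nlrp3. Il18bp was under the limit of 20 UMIs, and the CPM intervals of Il1rn, Il18bp and Nlrp3 overlapped. Of the other log2 ratios under an alternative, 774 stayed within the counting interval of the main value and 79 left it. Of the shares of cells with a UMI, 104 left their interval at 2000 UMIs or without thinning and 16 stayed. Depth limits Casp1, Il18 and Il18bp in neutrophils, where Control gave 1, 2 and 7 UMIs. In 10 cases an alternative left too few UMIs for a ratio.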
